A study of Mus musculus with 7 samples.

Results

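The Hox genes encode homeodomain transcription factors that give cells their position along the head-to-tail axis of the embryo. The mouse has 39 of them in the gene table used here, in 4 clusters (Hoxa, Hoxb, Hoxc and Hoxd), with paralog numbers from 1 to 13. All genes with a probe set whose annotation gives that Hox symbol alone were taken, and each was represented by its brightest probe set. That gave 31 Hox genes of 12393 genes on the array. A filter on dim signal, set at the 40th percentile of all probe sets, left 18 of the 31 for testing among 8019 genes. The other 13 are described by their signals.

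RNA came from whole C57BL/6 mouse embryos of mixed sex on embryonic day 9, dissected free of yolk sac and amnion and typed from yolk sac DNA. Adnp encodes a homeodomain and zinc-finger protein, and the study asked which genes lie downstream of it. Its groups were wild-type embryos (Adnp +/+, 2 arrays), heterozygous littermates (Adnp +/-, 3 arrays) and knockout littermates (Adnp -/-, 2 arrays), with a pool of 2 littermates of the same genotype on each of the 7 arrays. Per the design text, knockout embryos are visibly abnormal by this day and are later resorbed. Values are Affymetrix MAS5 signals on a linear scale, differences are on the scale of log2(signal + 3.8), and adjusted p-values are two-sided ones from limma over all 8019 genes. P-values measure the spread between pools, and the number of arrays limits the precision.

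Hox genes are switched on in the order in which they lie in their cluster. Genes of low number come on first and reach furthest forward, into the hindbrain, and genes of high number come on last and stay near the tail. Retinoic acid, FGF and WNT signals and the Cdx factors start or extend this expression, Polycomb and trithorax proteins keep it off or on, and Pbx, Meis and Pknox proteins bind DNA together with Hox proteins. The genes were therefore read in 3 classes: anterior (paralogs 1 to 3), central (4 to 8) and posterior (9 to 13). In whole embryos, fewer cells of a type and less RNA per cell cannot be told apart.

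The sequences just upstream of 3 Hox genes are shown because of how their signals lay. Hoxb1 was the tested Hox gene whose knockout pools both read above every other pool, and Hoxc4 and Hoxd9 had the largest negative differences. They are RefSeq sequences of build GRCm38.p6, 5′ to 3′ on the gene's strand and ending at the base before its start. They lie at chr11:96365508-96365757 (plus strand) for Hoxb1, chr15:103034145-103034394 (plus strand) for Hoxc4 and chr2:74697513-74697762 (plus strand) for Hoxd9. Capitals mark a match to 1 of 3 motifs searched on both strands.
Hoxb1, upstream 250 bases: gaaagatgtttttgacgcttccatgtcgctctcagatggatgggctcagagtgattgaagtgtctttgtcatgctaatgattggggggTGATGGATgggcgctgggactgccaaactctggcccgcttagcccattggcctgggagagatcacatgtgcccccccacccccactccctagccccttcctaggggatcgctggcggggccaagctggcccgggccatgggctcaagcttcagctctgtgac
Hoxc4, upstream 250 bases: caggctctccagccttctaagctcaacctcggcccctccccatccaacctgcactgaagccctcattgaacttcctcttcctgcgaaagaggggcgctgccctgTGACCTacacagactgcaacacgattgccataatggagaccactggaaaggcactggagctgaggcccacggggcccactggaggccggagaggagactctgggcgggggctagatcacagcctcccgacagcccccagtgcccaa
Hoxd9, upstream 250 bases: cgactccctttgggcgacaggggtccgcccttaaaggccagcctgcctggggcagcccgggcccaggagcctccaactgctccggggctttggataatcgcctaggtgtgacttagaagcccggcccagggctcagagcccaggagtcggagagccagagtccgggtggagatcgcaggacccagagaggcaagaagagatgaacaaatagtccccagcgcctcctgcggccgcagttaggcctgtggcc

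The capitals in Hoxb1 match the bipartite Pbx-Hox motif TGATNNAT, and those in Hoxc4 are the reverse complement of the retinoic acid receptor core AGGTCA. Hoxd9 held none of the 3 motifs. TGATNNAT was found upstream of 4 of 24 Hox starts (22 Hox genes, 18 of them on the array with a probe set of their own) and in 7.683% of 32851 promoters of the same length. The Cdx core TTTATG was found in 5 of the 24 and in 10.76% of all, and AGGTCA in 6 of the 24 and in 14.02% of all. These are matches of letters in short windows, and the 3 motifs do not overlap each other in the sequences shown.

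No Hox gene passed the test in any comparison of genotypes. Against wild type 0 of 18 Hox genes were called in the knockout, where 3.32% of all genes tested were, and against the heterozygotes 0 of 18, where 5.86% of all were. Between heterozygous and wild-type embryos 0 of 18 were called and 0% of all genes. At an unadjusted p under 0.05, 0 of 18 Hox genes differed between knockout and wild type (19.1% of all genes), 4 between knockout and heterozygous (Hoxa4, Hoxb6, Hoxc4 and Hoxc8; 22.7% of all) and 1 between heterozygous and wild type (3.54% of all). The median log2 difference of the 18 was -0.16 from wild type and -0.24 from the heterozygotes, beside -0.01 and -0.02 for all genes tested. Between heterozygous and wild-type embryos it was 0.14, beside 0.01. The first 2 comparisons share the knockout arrays, so they are not separate evidence. Without knockout pool 1 the median difference from wild type was 0.05, and without wild-type pool 1 it was -0.32.

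**Figure D1:**
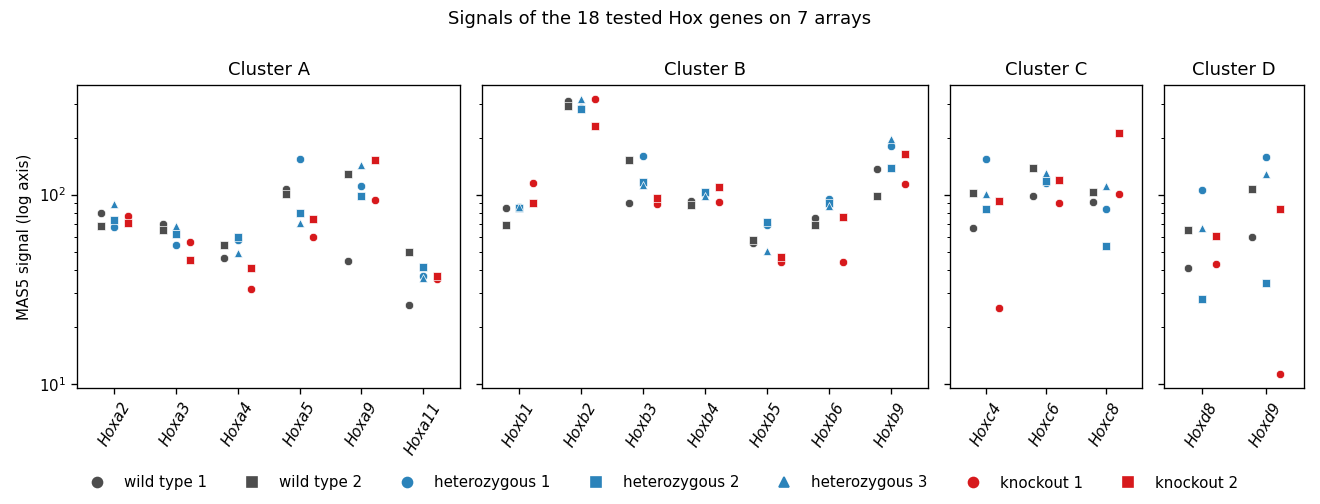
MAS5 signal (log axis) of each tested Hox gene on each of the 7 arrays, by cluster and paralog number; colour gives the genotype and marker shape the pool. The 3 genotypes overlap for most genes, and knockout pool 1 (red circle) is the lowest of all arrays for 8 of the 18. The same count over all genes was not made. Levels of different genes are read by different probes and are not comparable.

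The anterior genes, which pattern the hindbrain and the crest cells that leave it, were represented by Hoxa2, Hoxa3, Hoxb1, Hoxb2 and Hoxb3. Hoxb1 is the gene of the fourth hindbrain segment and maintains its own expression together with Pbx proteins. It read 85.3 and 69.3 in wild type, 85.5, 84.8 and 86 in the heterozygotes, and 115.6 and 90.7 in the knockout. Both knockout pools lay above the other 5, which held for 1 of 18 Hox genes and for 14.2% of all genes. The difference was 0.40 from wild type (SE 0.19, limma adjusted p = 0.29) and 0.25 from the heterozygotes (adjusted p = 0.43), so the groups were apart by little more than the pools within them.

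Hoxb2, a gene of the hindbrain and of the facial motor neurons, was the brightest Hox gene of its cluster. It read 311.6 and 292.5 in wild type, 287, 281.8 and 321.3 in the heterozygotes, and 318.9 and 231.5 in the knockout. Only knockout pool 2 was low, and the difference from wild type was -0.15 (SE 0.16, limma adjusted p = 0.67). Hoxa2, which sets the identity of the second pharyngeal arch, had a difference from wild type of 0.01 with a 95% interval from -0.44 to 0.45. All 7 of its signals lay between 67.5 and 89.5.

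The paralog 3 genes, which act in the hindbrain and in the crest of the third arch, both had negative differences. Hoxa3, needed for thymus and parathyroid, read 69.6 and 65.3 in wild type, 54.2, 62.1 and 68.2 in the heterozygotes, and 56.1 and 45.1 in the knockout. The knockout pools overlapped heterozygous pool 1, and the difference from wild type was -0.40 (SE 0.21, limma adjusted p = 0.35). A second Hoxa3 probe set gave -0.31. For Hoxb3 the difference was -0.33 from wild type and -0.45 from the heterozygotes (limma adjusted p = 0.52 and 0.28). Its signals were 90 and 152.2 in wild type, 159.2, 116.7 and 112.5 in the heterozygotes, and 89.1 and 96.2 in the knockout. The knockout pools read below all heterozygous pools and close to wild-type pool 1.

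Of the central genes, which pattern the posterior hindbrain, the neck and the trunk, 7 of 9 had a negative difference from wild type and 8 of 9 from the heterozygotes, and none passed. Their medians were -0.29 and -0.44. With probe sets averaged the first was -0.16 (5 of 8 negative), with the filter at the 60th percentile they were -0.01 (2 of 4) and -0.11 (3 of 4), and without heterozygous pool 1 the second was -0.24. Of all genes tested, 52.3% were negative in the first comparison and 53.0% in the second. Without knockout pool 1, 3 of 9 central genes were negative against wild type (median 0.08) and 6 of 9 against the heterozygotes (median -0.23). Without knockout pool 2 they were 7 of 9 (median -0.37) and 8 of 9 (median -0.48).

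The paralog 4 genes did not read alike. Hoxa4 read 46 and 53.9 in wild type, 57.2, 59.5 and 48.9 in the heterozygotes, and 31.6 and 41.1 in the knockout. Both knockout pools lay below the other 5, as did those of Hoxb5, which makes 2 of 18 Hox genes beside 16.5% of all genes. The Hoxa4 difference was -0.43 from wild type (SE 0.24, limma adjusted p = 0.37) and -0.56 from the heterozygotes (SE 0.22, adjusted p = 0.16). A second Hoxa4 probe set, under the filter, gave 0.26 and 0.38, and its knockout pools (6.9 and 14.9) overlapped the others. Hoxb4, its paralog in the Hoxb cluster, also known from blood stem cells, read 92.3 and 88.4 in wild type, 101, 102.9 and 98.6 in the heterozygotes, and 91.2 and 109.1 in the knockout. Its 95% interval against wild type ran from -0.23 to 0.51, and against the heterozygotes from -0.35 to 0.32. A second Hoxb4 probe set gave 0.04 from wild type and -0.36 from the heterozygotes. Hoxc4 read 66.6 and 101.7 in wild type, 154.9, 84.2 and 100.2 in the heterozygotes, and 25.1 and 92.9 in the knockout. Knockout pool 1 alone was low and pool 2 lay among the controls. The Hoxc4 difference from the heterozygotes was -1.10 (SE 0.44, limma adjusted p = 0.17). It was -1.97 without knockout pool 2, the 1 setting in which a Hox gene passed (limma adjusted p = 0.0458), and -0.23 without knockout pool 1 (adjusted p = 0.81). With 1 knockout pool left, that pool is assumed to vary like the other groups.

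Hoxa5, which acts in the neck skeleton and the lung, read 107.3 and 100.6 in wild type, 153.5, 80.1 and 70.9 in the heterozygotes, and 59.6 and 74 in the knockout. Both knockout pools were below wild type, but pool 2 overlapped heterozygous pool 3, and the difference from wild type was -0.62 (SE 0.31, limma adjusted p = 0.32). Hoxb5 read 55.3 and 57.8 in wild type, 68.9, 71.6 and 50.6 in the heterozygotes, and 44 and 47 in the knockout. Its difference was -0.29 from wild type (SE 0.23, limma adjusted p = 0.53) and -0.44 from the heterozygotes (SE 0.21, adjusted p = 0.24). Hoxb6, a gene of the trunk and the lateral mesoderm, had the smallest p of the Hox genes against the heterozygotes: -0.61 (SE 0.22, unadjusted p = 0.0192, limma adjusted p = 0.13). It read 94.7, 90.7 and 87.3 there, 75.6 and 69.3 in wild type, and 43.8 and 76.5 in the knockout. Knockout pool 2 lay above both wild-type pools.

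Hoxc6, a gene of the thoracic region and the brightest of its cluster, was read by 3 probe sets that disagreed. The brightest read 98.8 and 138.3 in wild type, 114.5, 117.5 and 129.6 in the heterozygotes, and 89.9 and 120 in the knockout, a difference of -0.16 (limma adjusted p = 0.72). The next gave 0.04, and the third, under the filter, gave 0.47. Averaged over the probe sets the difference from wild type was 0.11. No direction can therefore be given for Hoxc6.

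The paralog 8 genes had differences of unlike size and sign. Hoxc8, which specifies thoracic vertebrae and motor pools of the forelimb, read 91.6 and 102.7 in wild type, 84, 53.6 and 110.4 in the heterozygotes, and 100.5 and 212.4 in the knockout. Knockout pool 2 was high and pool 1 lay among the controls. The difference was 0.58 from wild type (SE 0.36, limma adjusted p = 0.43) and 0.85 from the heterozygotes (SE 0.33, adjusted p = 0.16). Without knockout pool 2 these were 0.05 and 0.33, and without knockout pool 1 they were 1.10 and 1.38 (limma adjusted p = 0.23 and 0.0981). Hoxd8 ranged from 28 to 105.8 within the heterozygous group alone, and its difference from wild type was -0.02, with a 95% interval from -1.08 to 1.04. The interval reaches past a 2-fold change either way.

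The posterior genes tested, which act in the lower trunk, limbs and tail, were Hoxa9, Hoxb9, Hoxd9 and Hoxa11. Hoxa9, the brightest of its cluster, read 44.5 and 128.9 in wild type, 111.3, 98.5 and 142.6 in the heterozygotes, and 94 and 152.2 in the knockout. The wild-type pools were further apart than the genotypes. The difference from wild type was 0.63 (SE 0.40, limma adjusted p = 0.45). A second Hoxa9 probe set also gave 0.63 from wild type, with knockout pool 2 at 174.6. Against the heterozygotes the brightest probe set gave 0.04 and the second 0.61. For the brightest Hoxa9 probe set the difference was -0.10 without wild-type pool 1 and 1.35 without wild-type pool 2.

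Hoxd9, which acts in the proximal limb and the trunk and had the brightest probe set of its own in its cluster, varied most among the tested Hox genes. It read 59.7 and 106.7 in wild type, 158.3, 34.2 and 128.1 in the heterozygotes, and 11.2 and 84.2 in the knockout. Its difference from wild type was -1.21 (SE 0.80, limma adjusted p = 0.46), and 0.07 without knockout pool 1. Its spread within genotypes exceeded that of 99.9% of all genes tested. Hoxb9 read 136.8 and 97.9 in wild type, 180.1, 138 and 195.7 in the heterozygotes, and 113.1 and 164.1 in the knockout. Heterozygous against wild-type Hoxb9 gave 0.54 (unadjusted p = 0.0319, limma adjusted p = 0.999), the 1 Hox difference with an unadjusted p under 0.05 between these groups. Hoxa11, which acts in the forearm and the kidney, differed by 0.00 from wild type (SE 0.30). Its wild-type pools read 26.1 and 49.9, on either side of the knockout pools (35.8 and 37).

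**Figure D2:**
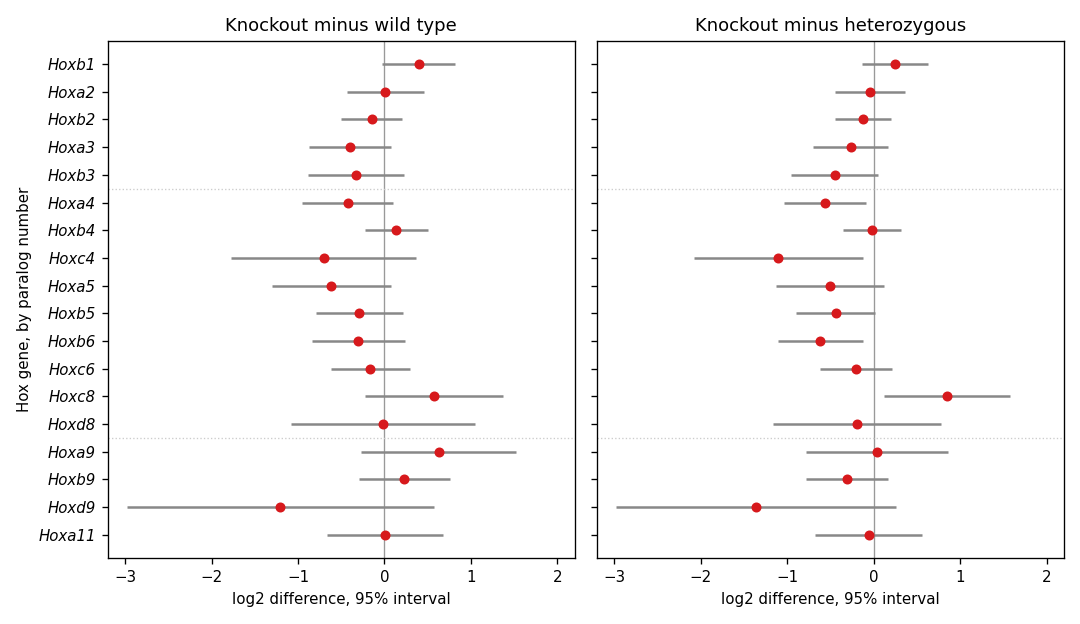
Log2 difference (points) and 95% interval (lines) of each tested Hox gene, knockout minus wild type at left and knockout minus heterozygous at right, ordered by paralog number with dotted lines between anterior, central and posterior genes. Every interval at left crosses 0; at right those of Hoxa4, Hoxc4, Hoxb6 and Hoxc8 do not, and none of these passed the adjusted test. Hoxd9 has the widest interval, from -2.98 to 0.57 at left.

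The size of change that these arrays could show differed between Hox genes. The 95% interval of the difference from wild type lay within a 2-fold change either way (1 on the log2 scale) for 12 of 18 Hox genes. Of all genes tested, it did for 6856 of 8019. Against the heterozygotes it did for 11 of 18 Hox genes, and all genes were not counted. The median standard error of the difference from wild type was 0.24 for the Hox genes and 0.18 for all genes tested, and the median SD within genotypes was 0.29 and 0.17. Of the 18, 14 lay above the all-gene median of that SD. Hoxd9, Hoxc4, Hoxd8, Hoxa9, Hoxc8 and Hoxa5 lay at percentiles 99.9, 99.2, 99.0, 98.5, 97.4 and 95.1, while Hoxb4 lay at percentile 14.6. The median size of the difference from wild type, sign left aside, was 0.31 for the Hox genes and 0.19 for all genes.

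The 2 knockout pools differed from each other along the axis. All 13 central and posterior Hox genes read lower in pool 1 than in pool 2 (median log2 difference -0.45), while 1 of the 5 anterior genes did (median 0.29). The anterior count depends on the probe set: a second one for Hoxa3 read 38.2 in pool 1 and 52.2 in pool 2, the reverse of the one counted. Of all genes tested, 47.6% read lower in pool 1, with a median of 0.01. Between the wild-type pools the counts were 9 of 13 central and posterior genes and 1 of 5 anterior genes lower in pool 1, with medians of -0.21 and 0.09. Among the 3 pairs of heterozygous pools, 4 to 7 of 13 were lower in the pool of lower number, and 2 to 4 of 5 anterior genes were. Heterozygous pool 1 against pool 3 split the other way, with 4 of 13 and 4 of 5 lower (medians 0.11 and -0.16). Knockout pool 1 was the lowest of all 7 arrays for 8 of the 18 Hox genes, and each other array for 0 to 3. How often it was the lowest among all genes tested was not counted. The contrast of the knockout pools was noticed in the data, has 1 pool on each side and was not tested. Below the filter 12 of 13 Hox genes read lower in pool 1, anterior Hoxd1 among them (28.8 and 59.1), and Hoxc13 did not (6 and 2). Of all genes under the filter 51.8% read lower in pool 1.

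**Figure D3:**
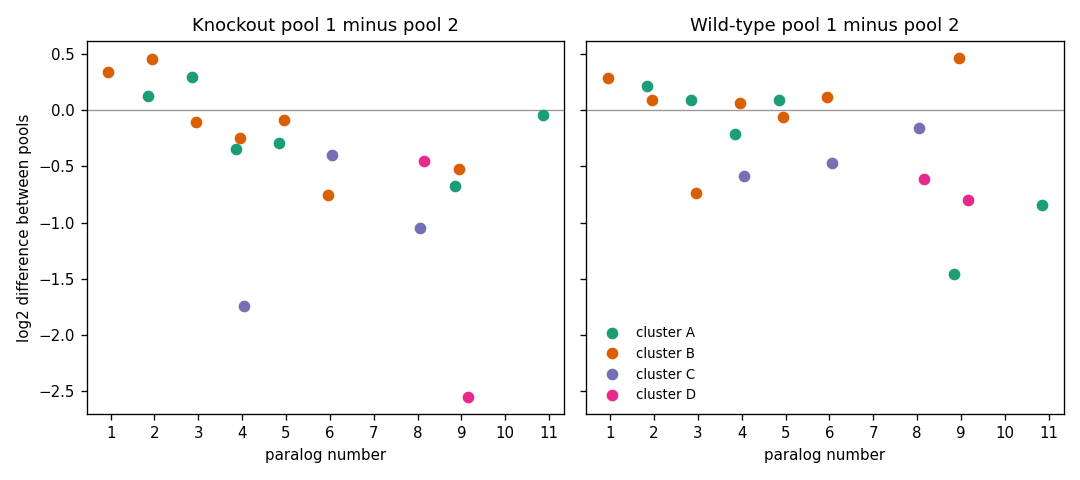
Log2 difference between the 2 pools of a genotype (pool 1 minus pool 2) for each tested Hox gene against its paralog number, knockout at left and wild type at right, coloured by cluster. In the knockout all 13 genes of paralog 4 and above lie below 0; in wild type 9 of 13 do.

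The 13 Hox genes under the filter were Hoxa7, Hoxa10, Hoxa13, Hoxb7, Hoxb13, Hoxc5, Hoxc9, Hoxc13, Hoxd1, Hoxd10, Hoxd11, Hoxd12 and Hoxd13. Their signals ran from 0.6 to 73.7, and 5 of them never reached 10. In none of the 13 did both knockout pools lie beyond the other 5. The share among all genes under the filter was not counted. Among all genes tested, both knockout pools lay below the others in 16.5% and above them in 14.2%. Of the paralog 10 to 13 genes on the array, Hoxa11 alone passed the filter. Hoxd1 read 20.3 and 23.5 in wild type, 32.5, 18.9 and 22.1 in the heterozygotes, and 28.8 and 59.1 in the knockout, so that knockout pool 1 overlapped the heterozygotes. A MAS5 signal this low is noisy and sets no limit on the gene's expression.

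Some Hox genes were read only by probe sets shared with a neighbour. Hoxd3 and Hoxd4, neighbours in their cluster, share a pair of probe sets. The brighter read 186.1 and 219.9 in wild type, 271, 188.4 and 194.1 in the heterozygotes, and 139 and 128.3 in the knockout, so both knockout pools lay below all others. Its difference was -0.59 from wild type and -0.67 from the heterozygotes (limma adjusted p = 0.15 and 0.0657, adjusted over probe sets). The dimmer gave -0.13 in both comparisons. A probe set shared by Hoxb8 and Hoxb7 read 33.1 and 65.8 in the knockout pools, beside 33.8 and 73.3 in wild type. None of these can be assigned to a single gene.

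The TALE homeodomain cofactors of Hox proteins had negative differences in the knockout, mostly without passing. All 7 tested had a negative difference from wild type (median -0.37), 1 had an unadjusted p under 0.05, and 0 of 7 were called. Of all genes tested, 52.3% were negative, 19.1% had such a p and 3.32% were called. The largest was that of Pknox1 at -0.51 (SE 0.25, limma adjusted p = 0.30). Pbx2, a general Pbx partner, read 741.9 and 886.1 in wild type, 844.5, 704 and 908 in the heterozygotes, and 555.7 and 591.8 in the knockout. The knockout pools lay below all others, and Pbx2 fell by 0.50 against the heterozygotes (SE 0.13, limma adjusted p = 0.0488). Against wild type the difference was -0.50 (limma adjusted p = 0.0859, and 0.0453 with array weights). The Pbx2 call was lost with any array but heterozygous pool 2 left out (adjusted p up to 0.26 without knockout pool 1). With all arrays kept it was lost without the filter (0.0823), without the trend (0.11), with quantile normalization (0.0515), with probe sets averaged (0.0638) or with only the arrays of the 2 groups (0.0561).

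Of the factors and signals that start or extend Hox expression, 0 of 13 passed against wild type (median -0.01, 2 with an unadjusted p under 0.05). Of all genes tested, 3.32% were called there and 19.1% had such a p. Against the heterozygotes, where 5.86% of all genes were called, 1 of the 13 rose. That gene was Cyp26a1, the enzyme that breaks down retinoic acid at the tail end and in the anterior hindbrain. It read 64.5 and 51 in wild type, 54.6, 37.9 and 42.7 in the heterozygotes, and 101.3 and 114.1 in the knockout. Cyp26a1 was higher than in the heterozygotes by 1.20 (SE 0.21, limma adjusted p = 0.0105), and its difference from wild type was 0.86 (SE 0.23, adjusted p = 0.0719). The second comparison passed with array weights (limma adjusted p = 0.0337) or without heterozygous pool 1 (0.0460). Without either knockout pool the first comparison did not pass (adjusted p = 0.0758 and 0.12). Lin28a, an RNA-binding protein of early axial progenitors, had the largest difference from wild type, 0.93 (SE 0.35, limma adjusted p = 0.19). With probe sets averaged Lin28a was at 0.53 and passed (limma adjusted p = 0.0446), as it did against the heterozygotes (0.47, adjusted p = 0.0411). Aldh1a2, which makes retinoic acid, had a difference of -0.18, and the receptors Rara, Rarb and Rarg had -0.29, -0.02 and -0.01.

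The Cdx genes, which drive central and posterior Hox expression, lay under the filter. Cdx2 read 26.6 and 11.1 in wild type, 4.4, 23.9 and 24.3 in the heterozygotes, and 69 and 98.3 in the knockout. Both knockout pools were above all others, and in a fit without the filter the difference from wild type was 2.02 (SE 0.62, limma adjusted p = 0.16), which did not pass. Cdx4 read 22.2 and 50.4 in the knockout and between 8 and 15.8 elsewhere, with 1.14 (limma adjusted p = 0.26). Cdx1 stayed at or under 11.5 on all arrays. Egr2, which acts in hindbrain segments 3 and 5 upstream of Hoxa2 and Hoxb2, read 50.4 and 29.8 in the knockout and between 12.6 and 29.4 elsewhere (0.98, limma adjusted p = 0.29). Cdx2 is also a trophoblast marker. The trophoblast list had a mean log2 signal of 6.70 and 6.93 in the knockout pools and of 6.24 to 6.54 in the other pools. Of its 4 tested members 1 rose against wild type, where 3.32% of all genes were called. The part of trophoblast RNA in the Cdx2 signal was not tested.

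Among 21 tested Polycomb and trithorax genes and other chromatin regulators of the clusters, 1 fell against wild type and 0 rose. Of all genes tested, 3.32% were called there. An unadjusted p under 0.05 was found for 5 of the 21 and for 19.1% of all genes. The gene that fell was Bmi1, a core subunit of Polycomb repressive complex 1. It read 249.9 and 325.3 in wild type, 315.3, 269.6 and 259.5 in the heterozygotes, and 171.9 and 155.1 in the knockout. Bmi1 fell by 0.79 against wild type (SE 0.16, limma adjusted p = 0.0274) and by 0.77 against the heterozygotes (SE 0.15, adjusted p = 0.0167). The call against wild type was lost without knockout pool 1 (adjusted p = 0.11), knockout pool 2 (0.18), wild-type pool 2 (0.25), without the filter (0.0507) or without the trend (0.0665). Against the heterozygotes it was lost without knockout pool 1 (0.0891) or pool 2 (0.15). Ring1, a partner of the same complex, fell by 0.61 against the heterozygotes (limma adjusted p = 0.041) and had -0.52 from wild type (adjusted p = 0.11). The Ring1 call was lost with any array but heterozygous pool 2 left out (adjusted p up to 0.21), and also without the filter (0.0668), without the trend (0.0603) or with only the arrays of the 2 groups (0.0590). Ezh2, the methyltransferase of complex 2, had -0.05 from wild type, Eed 0.12, Suz12 0.23 and Kmt2a, the trithorax methyltransferase, -0.28, none of them called.

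The genes that flank the Hox clusters but are no Hox genes gave 0 of 11 calls in each comparison (median difference from wild type -0.08, 1 with an unadjusted p under 0.05). Of all genes tested, 3.32% were called against wild type and 19.1% had such a p. The largest difference of a flanking gene was that of Snx10 beside the Hoxa cluster, at 0.60 (limma adjusted p = 0.0904, and 0.0453 with array weights). Motor neuron and limb genes that Hox proteins place along the axis gave 0 of 6 calls and 0 with an unadjusted p under 0.05 in limma, with Pitx1, a hindlimb gene, at 0.54 (limma adjusted p = 0.32).

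Calls among markers of the body regions themselves stand beside 3.32% of all genes called against wild type and 5.86% against the heterozygotes. An unadjusted p under 0.05 was found for 19.1% and 22.7% of all genes. Of 5 hindbrain segment genes 0 passed against wild type (1 with an unadjusted p under 0.05), where Gbx2 had the largest difference (0.59, limma adjusted p = 0.29), and Crabp1, a retinoic acid binding protein, fell by 0.58 against the heterozygotes (limma adjusted p = 0.0253). The Crabp1 call was lost without knockout pool 2 (adjusted p = 0.22), heterozygous pool 3 (0.0516), the filter (0.0536) or the trend (0.0818). Of 9 tested tailbud and presomitic mesoderm genes 0 passed against wild type (3 with an unadjusted p under 0.05). Lfng, a modulator of Notch in the segmentation clock, had -0.92 there. It passed with array weights (limma adjusted p = 0.0255), the filter at the 60th percentile (0.0484), probe sets averaged (-1.54, 0.0209) or heterozygous pool 1 left out (0.0372). Against the heterozygotes Cyp26a1 rose and Lfng fell by 0.98 (limma adjusted p = 0.0204). Without either knockout pool Lfng did not pass (adjusted p = 0.16 and 0.11). In front of the Hox domains, 1 of 7 forebrain and midbrain genes fell against wild type, Lhx2 by 1.07 (limma adjusted p = 0.0314). Without either knockout pool or either wild-type pool Lhx2 did not pass (adjusted p from 0.0688 to 0.24), nor without the filter (0.0692) or the trend (0.0529). Fgf15, expressed in the neural tube, rose by 1.30 against the heterozygotes (limma adjusted p = 0.0224) and had 1.20 from wild type (adjusted p = 0.0569). The difference from wild type passed with array weights (limma adjusted p = 0.0353) or without heterozygous pool 1 (0.0493). Without knockout pool 1 the Fgf15 difference from the heterozygotes was 0.80 (adjusted p = 0.18). Its call was also lost without heterozygous pool 3 (0.0543) or without the filter (0.0555).

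**Figure D4:**
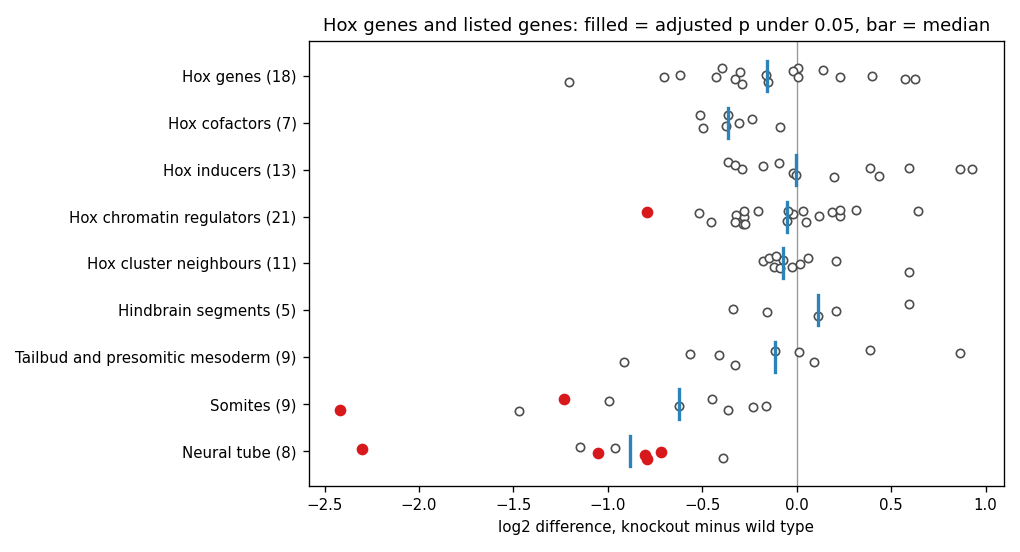
Log2 difference from wild type in the knockout for the Hox genes and for each list of related genes (number tested in brackets); filled points passed an adjusted p under 0.05 and bars are medians. No Hox gene, cofactor or inducer is filled; Bmi1 is the filled chromatin regulator, and 2 somite and 5 neural tube genes are filled.

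Tissues that carry Hox expression and tissues that do not also differed between the groups. Of all genes tested, 3.32% were called against wild type. Of 8 tested neural tube progenitor genes 5 fell against wild type and 0 rose (median -0.88). Of 9 somite genes 2 fell and 0 rose (median -0.62). In the heart list 2 of 11 fell, in endothelium 1 of 9 and in decidua 1 of 4, and 0 rose in each. The primitive erythroid list had 0 of 7 called. Of 19 visceral endoderm genes 11 rose and 0 fell (median 2.66). The mean log2 signal of that list was 8.68 and 8.87 in the knockout pools, 7.06 and 5.44 in wild type and 5.36 to 6.60 in the heterozygotes. Outside the knockout some listed markers were near the floor, such as Apoc2 at 0.5 in heterozygous pool 1. Others were not, such as Dab2 at 445.6 and 254.4 in wild type. Visceral endoderm is the outer layer that the dissection should remove. Knockout pool 2 differed from pool 1 by 0.56 in the mean log2 signal of the primitive erythroid list, 0.54 of decidua, 0.22 of trophoblast, 0.21 of endothelium, 0.19 of visceral endoderm, -0.06 of neural tube, -0.17 of somites and -0.30 of heart. These gaps stand beside the gap between the same pools in central and posterior Hox genes, and their part in it was not tested. Ratios of 3′ to 5′ probe sets, a sign of RNA quality, were 0.80 to 0.88 for Gapdh on all arrays and, for actin, 1.16 and 1.19 in the knockout pools and 0.99 to 1.11 in the others. The part of tissue composition, RNA quality or embryo stage in the Hox values was not tested.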

How the data were processed

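Whole-embryo RNA was measured on 7 Affymetrix Murine Genome 430A arrays, grouped by the sample titles. The deposited intensities are linear MAS5 signals made by the authors, per the submitters' processing notes; for its version and for the annotation's build, nothing is given in the sources used here. The trimmed mean (2% off each end) was 150.0 to 150.1 on each array, so changes are relative to the whole array. Probe sets were named by the platform annotation, and only those with 1 symbol were used. To each signal 3.8 (the 10th percentile of all values) was added before the log2, which understates changes of dim genes. The filter lay at 38.1 (signal plus pseudocount).

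Genotypes were compared in 1 fit over all 7 arrays in R 4.3.3 with limma 3.58.1 (lmFit, eBayes with trend), with 4 residual and 6.19 prior degrees of freedom, Benjamini-Hochberg adjustment over 8019 genes and a threshold of 0.05. The script was tested on simulated data. Alternatives varied the pseudocount, filter, scaling, trend, probe set choice, control group and array weights, added the replicate block, restricted the fit or left out arrays. The Hox genes and lists were chosen with earlier results of these data known.

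The naming rule gave in full Hox genes past the threshold, those with both knockout arrays beyond the others by at least 0.5 on the log2 scale, the brightest of each cluster and those with discordant probe sets; from lists, called members or the member with the largest difference. Other Hox and listed genes were named after their values were seen; cell type lists are given as counts. Same-numbered pools did not deviate together, a weak check with 2 or 3 pools in a group.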

Additional observations from a re-analysis of the deposited data

How the results depend on the processing

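The count of Hox genes past the threshold was 0 under all alternatives in the comparisons with wild type, and 0 against the heterozygotes too except when an array was left out, where it ranged from 0 to 1 (Hoxc4, without knockout replicate 2). At an unadjusted p under 0.05 the knockout against all 5 other arrays gave 4 of 18 Hox genes. Of the 18, 0 passed (smallest limma adjusted p 0.15). The share of all genes under that unadjusted threshold was not counted for this contrast. It was 19.1% for knockout against wild type and 22.7% for knockout against heterozygous. Calls among all genes moved with the setting. Against wild type there were 266, with 161 without the filter, 174 without the trend, 514 with array weights and 662 against all 5 others. Against the heterozygotes there were 470, with 306, 262 and 663 under the first 3. With a heterozygous array left out they ranged from 206 to 417 and from 246 to 545. They were lower in both comparisons with a knockout array left out, which leaves 1 in that group. With the replicate block 0 Hox genes passed and 72 and 76 of all genes did. The deviations of same-numbered pools had r from -0.29 to 0.00. With 2 or 3 pools in a group these cannot settle whether pools were matched. The block ended the calls of Bmi1, Lhx2, Pbx2, Ring1, Cyp26a1, Crabp1, Lfng and Fgf15 (adjusted p from 0.0639 to 0.19).

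With each array left out, the median Hox difference ranged from -0.32 to 0.054 (knockout against wild type), from -0.41 to -0.10 (knockout against heterozygous) and from -0.026 to 0.25 (heterozygous against wild type). Single Hox differences that turned sign when an array was left out had these ranges against wild type: Hoxa11 -0.42 to 0.43, Hoxa2 -0.10 to 0.12, Hoxa9 -0.10 to 1.35, Hoxb2 -0.38 to 0.078, Hoxb3 -0.69 to 0.039, Hoxb6 -0.68 to 0.076, Hoxb9 -0.033 to 0.49, Hoxc4 -1.58 to 0.17, Hoxc6 -0.40 to 0.070, Hoxd8 -0.33 to 0.29 and Hoxd9 -2.48 to 0.071. Against the heterozygotes they were Hoxa2 -0.13 to 0.065, Hoxa9 -0.29 to 0.38, Hoxb2 -0.35 to 0.11, Hoxb4 -0.14 to 0.11 and Hoxd8 -0.68 to 0.21. Other turns of sign were, against all 5 other arrays Hoxa11 (-0.032), Hoxa2 (-0.023) and Hoxb9 (-0.093); Hoxa11 with a pseudocount of 16 (-0.0076) or quantile normalization (-0.034); against the heterozygotes Hoxa2 with the block (0.065), Hoxa9 with array weights (-0.0097), Hoxb4 with quantile normalization (0.027) and Hoxc6 with probe sets averaged (0.40, and 0.11 against wild type). The cause was not tested. The number of arrays and the dim signals of posterior Hox genes limit what could be seen.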
